A study of Mus musculus with 18 samples.

Results

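The genes described here are 10 regulators and markers of hair follicle stem cells. They were chosen by name with earlier results of these data known, so counts among them are not independent of those results. The receptors are Lgr5 and Lgr6, the WNT effectors Tcf7l1 and Tcf7l2, and the transcription factors Lhx2, Sox9, Nfatc1, Tbx1 and Foxc1. The surface marker is Cd34. These are 10 of 21900 protein-coding genes, and every listed region in their RefSeq bodies or within 5 kb of them was taken. H3K36me2 and H3K27me3 were profiled in mouse epidermis by CUT&RUN, in which an antibody tethers a nuclease that releases the DNA at a chromatin mark. All animals carried LSL-H3K36M, a construct for a histone H3 whose lysine 36 is replaced by methionine. By its name (lox-stop-lox), the construct stays silent until Cre removes a stop. The compared genotypes were Krt14-Cre(+); LSL-H3K36M (mutant) and Krt14-Cre(-); LSL-H3K36M (WT), with 3 libraries of each mark per genotype. The Krt14 promoter drives Cre in cells that express Krt14, the basal layer and the outer root sheath and bulge of the follicle included. Cells in the suspension that never expressed Krt14 and do not descend from cells that did are not targeted. The labels give no age or sex.

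Stem cells of the hair follicle rest in the bulge and are woken at each growth phase by WNT signals. LGR5 and LGR6 are receptors for R-spondins, which strengthen WNT signals, and TCF7L1 and TCF7L2 are DNA-binding partners of beta-catenin that keep WNT targets silent or switch them on. LHX2, SOX9, NFATC1, TBX1 and FOXC1 hold the bulge state or its quiescence. H3K27me3 is the mark of Polycomb repression and is typical of CpG-dense starts of silent developmental genes, while H3K36me2 covers broad stretches between and inside genes and hinders the deposition of H3K27me3.

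Of the 10 genes, 8 had at least 1 listed region and Tcf7l1 and Cd34 had none. H3K27me3 fell at 6 genes (Lgr5, Lgr6, Lhx2, Sox9, Tbx1 and Foxc1) and rose at 0 in DiffBind's comparison. Among all protein-coding genes, 7.43% had a falling window and 2.64% a rising one. H3K36me2 islands, the broad enriched stretches that SICER2 reports, lay at 3 genes (Lgr6, Tcf7l2 and Nfatc1), where 20.6% of all genes had one. Over the whole table of 13409 islands, 17.3% were higher in the mutant and 58.1% lower. Lgr6 was the 1 gene of the 10 with both an island and a falling H3K27me3 window. At 5 genes a falling window came without an island, as at 1468 of the 1627 genes with a falling window in the whole genome (90.2%).

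**Figure D1:**
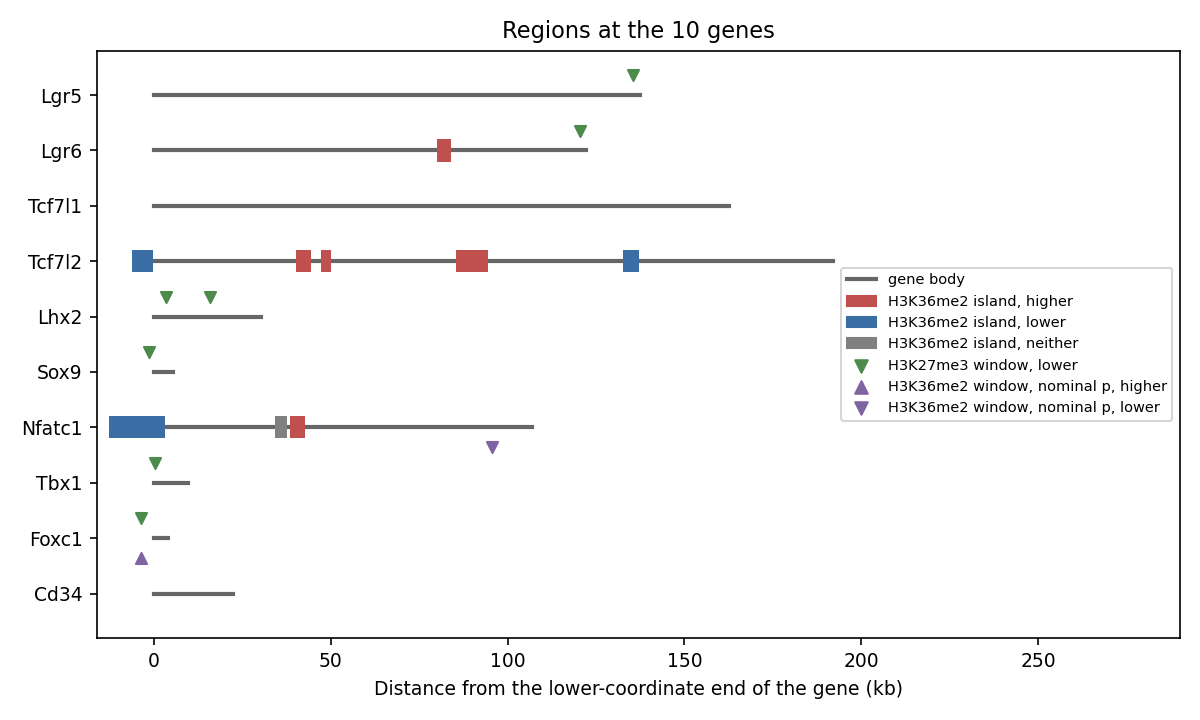
Map of the 10 genes, drawn from the end with the lower coordinate, in kb. Grey lines are gene bodies, boxes are H3K36me2 islands coloured by their call, green triangles are falling H3K27me3 windows and purple triangles are H3K36me2 windows at nominal p only. The boxes are confined to Lgr6, Tcf7l2 and Nfatc1, and Tcf7l1 and Cd34 carry no symbol.

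The gene starts themselves differ in CpG density, the sequence feature on which Polycomb marks mostly lie. The RefSeq promoter table for GRCm38.p6 held 10 start regions of 300 bases for 7 of the genes. Those of the genes with a falling window and a table entry (Lgr6, Lhx2, Tbx1 and Foxc1) held 16 to 34 CG dinucleotides, against a median of 7 over all 32851 promoters (quartiles 3 and 20). CG density did not separate the genes by their regions, since Tcf7l1, which had no listed region, also held 34. The sequence CTTTGA, a form of the core WNT-factor motif, was searched on both strands. It was in 0 of the 10 start regions and in 16.0% of all promoters. Other forms of the motif were not counted. The 250 bases before the start are shown 5′ to 3′ for Lgr6 (chr1:135105277-135105526, minus strand), with both marks changed in the gene, and for Foxc1 (chr13:31806396-31806645, plus strand), whose upstream window appears in the tables of both marks. They are also shown for Tcf7l2 (chr19:55741560-55741809, plus strand), whose first 41 bases lie in a lower H3K36me2 island, and for Cd34 (chr1:194938571-194938820, plus strand). Cd34 had no listed region, and its start region of 300 bases held 7 CGs, the median over all promoters. Capitals mark each CG.
Lgr6: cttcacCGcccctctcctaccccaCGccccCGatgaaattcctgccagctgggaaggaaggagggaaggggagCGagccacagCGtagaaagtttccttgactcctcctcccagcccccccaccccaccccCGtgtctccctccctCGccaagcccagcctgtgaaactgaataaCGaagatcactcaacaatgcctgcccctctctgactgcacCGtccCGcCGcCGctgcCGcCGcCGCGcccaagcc
Foxc1: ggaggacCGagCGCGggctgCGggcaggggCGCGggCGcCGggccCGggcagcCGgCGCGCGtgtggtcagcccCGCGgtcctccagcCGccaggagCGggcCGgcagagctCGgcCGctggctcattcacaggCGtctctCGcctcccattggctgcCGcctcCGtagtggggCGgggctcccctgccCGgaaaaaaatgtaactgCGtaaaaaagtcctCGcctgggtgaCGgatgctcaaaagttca
Tcf7l2: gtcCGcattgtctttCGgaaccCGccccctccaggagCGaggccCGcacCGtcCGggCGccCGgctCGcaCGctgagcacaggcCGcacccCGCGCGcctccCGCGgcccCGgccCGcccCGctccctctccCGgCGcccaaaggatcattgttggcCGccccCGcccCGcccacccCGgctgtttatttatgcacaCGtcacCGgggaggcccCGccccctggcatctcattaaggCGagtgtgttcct
Cd34: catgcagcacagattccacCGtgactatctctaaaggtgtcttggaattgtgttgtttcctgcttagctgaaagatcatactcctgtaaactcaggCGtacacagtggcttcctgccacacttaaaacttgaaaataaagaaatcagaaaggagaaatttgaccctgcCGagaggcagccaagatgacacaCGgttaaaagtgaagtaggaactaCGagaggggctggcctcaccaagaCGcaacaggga
These stretches hold 16 CGs at Lgr6, 29 at Foxc1, 30 at Tcf7l2 and 6 at Cd34.

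H3K27me3 was compared over 401 bp windows by DiffBind, which uses the spread between libraries and whose FDR under 0.05 was the call. Of 18072 windows tested, 15.2% fell and 8.54% rose. Windows that were not called are not listed, so how many windows were tested at the 10 genes is unknown. All 7 listed windows at the genes fell, while 64.0% of all 4285 listed windows did. Their median log2 fold by the authors' deposited table was -0.99, against -0.91 over all listed windows and -1.10 over the 2742 falling ones. The WT means at these windows ran from 38.3 to 119.5 normalised reads and the mutant means from 18.2 to 44.0. The tables used here hold 1 mean per genotype, so the spread between animals cannot be shown beside the means. In epidermis taken as a bulk suspension, a smaller share of marked cells and less mark per cell cannot be told apart. A scaling difference between the genotypes cannot be told from either, since the use of a spike-in is not given.

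Among the receptors, Lgr5, which marks cycling and lower-bulge stem cells, showed the deepest fall of the 10 genes. Its window on chromosome 10 from 115585651 to 115586051 had a mean of 119.5 reads in WT and 35.9 in mutant epidermis, after normalisation. By the authors' deposited table its log2 fold was -1.60 and its FDR 3.21e-11, rank 31 from the smallest of the 4285 listed windows. The window lay inside the gene, 1929 bp from its higher-coordinate end, and within 5 kb of another gene, A930009A15Rik. The WT level exceeded that of 91.7% of falling windows. No H3K36me2 island lay within 5 kb of Lgr5, a gene of 137.5 kb.

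Lgr6, which marks stem cells of the upper follicle, the isthmus, had a smaller fall at its start and a gain of H3K36me2 deep in the gene. The H3K27me3 window on chromosome 1 from 135103691 to 135104091, inside the gene and 1385 bp from the RefSeq start shown above, went from 38.3 to 18.2 normalised reads. Its log2 fold by the authors' deposited table was -0.96 with an FDR of 0.0102. This was the lowest WT mean among the 7 windows. The H3K36me2 island, from 135063401 to 135067200, lay 39975 bp from that start, measured from its centre. It held 155 mutant and 72 WT reads, or 2.60 and 1.52 RPM, that is, scaled to the depth of each pool. The fold by the authors' deposited table was 1.70 with an FDR of 1.71e-08, and the read ratio had an exact 95% interval of 1.29 to 2.30. Lgr6 thus carried more H3K36me2 in the mutant at 1 place and less H3K27me3 at another, and 52 of the 21900 genes had this pair of calls.

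**Figure D2:**
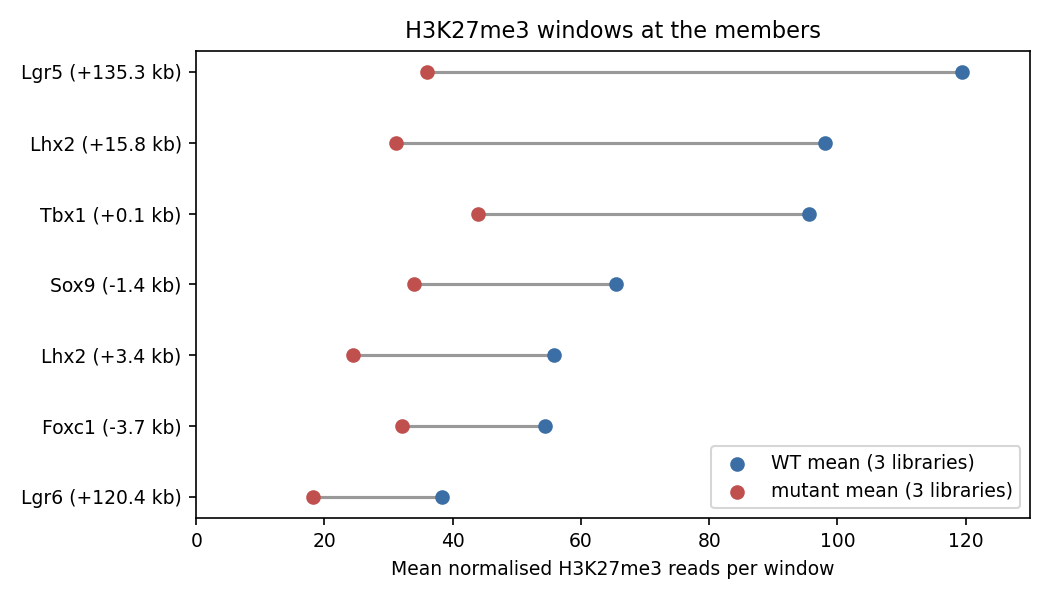
Mean normalised H3K27me3 reads in WT (blue) and mutant (red) at the 7 listed windows of the genes, ordered by WT mean. The label gives the window's start in kb from the lower-coordinate end of the gene, and the mutant mean is the smaller one in all 7.

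The WNT effectors differed from each other in H3K36me2. Tcf7l1, the repressor of WNT targets in bulge cells, had no listed region of either mark in 162.7 kb and its flanks. Tcf7l2, its relative of 191.9 kb on chromosome 19, had 5 islands, 3 higher and 2 lower in the mutant pool. The islands are named here by their distance from the low-coordinate end of the gene, which is its start side on the plus strand. Counts of an island come from the pooled libraries of a genotype, so the calls compare pools and not animals.

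The strongest gain in Tcf7l2 was the island at 47.2 kb, from 55789001 to 55792000. It held 128 mutant and 55 WT reads, a fold of 1.83 by the authors' deposited table at an FDR of 6.16e-09 and an exact interval of 1.34 to 2.59. It was the highest fold among the 9 islands at the genes. Its WT level, 0.387 RPM per kb, was the lowest of the 9 and lay under the median of 0.708 over all islands.

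Both other higher islands in Tcf7l2 had small folds. The island at 85.4 kb, from 55827201 to 55836200, held 319 mutant and 207 WT reads, a fold of 1.22 by the authors' deposited table at an FDR of 0.00187. The one at 40.2 kb, from 55782001 to 55786200, held 155 and 101 reads, also a fold of 1.22, with an FDR of 0.0417 by the authors' deposited table. The interval of the latter, 0.944 to 1.58, included 1.

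The lower islands of Tcf7l2 lay at its start and farther into the gene. The island from 55735601 to 55741600 ended 197 bp before the gene and reached 41 bases into the start region printed above. It held 168 mutant and 177 WT reads, a fold of 0.755 by the authors' deposited table at an FDR of 3.53e-04 and an interval of 0.608 to 0.938. The island at 132.6 kb, from 55874401 to 55879000, held 164 and 159 reads, a fold of 0.820 by the authors' deposited table at an FDR of 0.0126. Its interval, 0.656 to 1.03, included 1.

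Of the bulge transcription factors, Lhx2, Sox9, Tbx1 and Foxc1 had falling H3K27me3 windows and no island, and Nfatc1 had islands and no H3K27me3 window. Lhx2, a LIM-homeobox factor that maintains the bulge, had 2 falling windows on chromosome 2. The one from 38355029 to 38355429 dropped from 98.0 reads to 31.2, a log2 fold of -1.50 (FDR 1.43e-09) by the authors' deposited table. It lay 3921 bp from the nearer of the RefSeq starts of Lhx2. The other window, from 38342621 to 38343021, was 3540 bp from the first start and went from 55.9 to 24.5 reads, a log2 fold of -0.99 (FDR 0.00471) by the authors' deposited table. After Lgr5, the first of these windows had the second largest fall among the 7.

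Tbx1, a T-box factor of the bulge signature, had 1 window on chromosome 16, from 18581100 to 18581500. It lay 321 bp from the low-coordinate end, which for this minus-strand gene is its far end, and 7599 bp from the nearer RefSeq start. The WT mean was 95.6 normalised reads and the mutant mean 44.0, with a log2 fold of -1.03 (FDR 1.88e-05) by the authors' deposited table. The mutant mean was the highest of the 7, above the WT mean of the Lgr6 window.

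Sox9, an HMG-box factor that specifies early bulge cells, had 1 window on chromosome 11, from 112780803 to 112781203, which ended 1007 bp outside the gene. It dropped from 65.5 reads in WT to 34.0, a log2 fold of -0.84 (FDR 0.00267) by the authors' deposited table.

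Foxc1, a forkhead factor of stem cell quiescence, had 1 window on chromosome 13, from 31802918 to 31803318, which lay 3528 bp before its start. H3K27me3 there dropped from 54.4 reads in WT to 32.1, a log2 fold of -0.72 (FDR 0.0188) by the authors' deposited table. This was the smallest fall of the 7, and 4.12% of all falling windows fell by less. The same 401 bp window is listed for H3K36me2, where the WT mean was 1.70 and the mutant mean 7.48 normalised reads. Its shrunken log2 fold was 0.0028, with a p of 0.00755 and an FDR of 0.9996 by the authors' deposited table, so the window was not called. Of the 214 windows listed for both marks, 77 had higher H3K36me2 with lower H3K27me3, as at Foxc1, and 88 had the opposite pair. Both marks were lower in 38 windows and higher in 11.

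**Figure D3:**
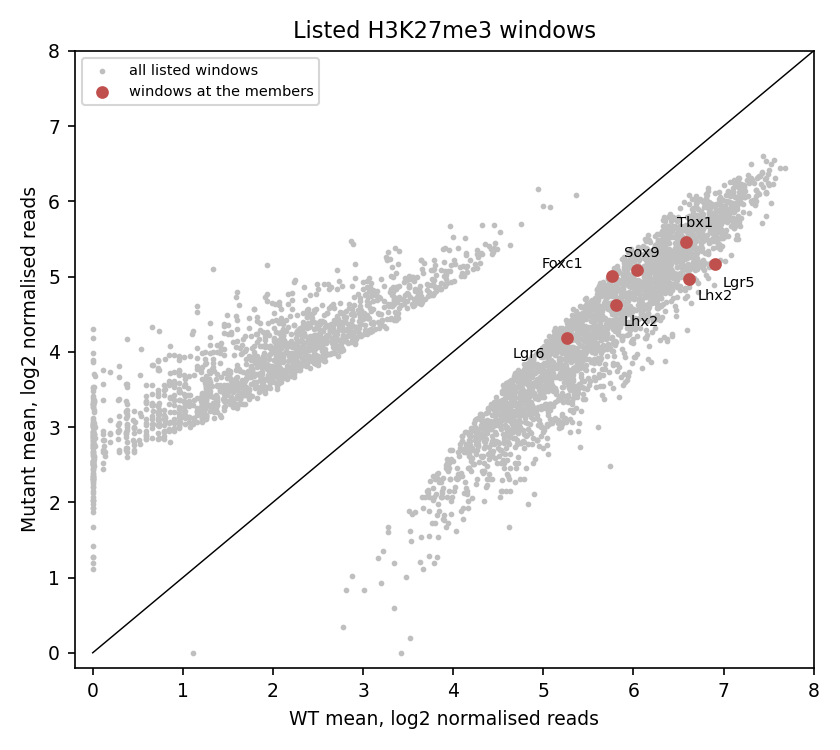
Mutant against WT mean of all 4285 listed H3K27me3 windows (grey) and of the 7 at the genes (red), both axes in log2 normalised reads, with the line of equality. The 7 windows sit below the line, 6 of them above the median WT level of falling windows, which is 51.6 reads.

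Nfatc1, the calcineurin-regulated factor that keeps bulge cells quiescent, had 3 islands on chromosome 18. The widest, from 80593601 to 80609400, spans 15.8 kb across the low-coordinate end of the gene and held 531 mutant and 479 WT reads. Its fold of 0.882 had an FDR of 0.00627 by the authors' deposited table, with an interval of 0.778 to 0.9998. Farther in, the island from 80644801 to 80649000 held 177 and 110 reads, a fold of 1.28 with an FDR of 0.00555 by the authors' deposited table and an interval of 1.003 to 1.64. Between them, the island from 80640601 to 80644000 held 147 and 100 reads and was not called (fold 1.17, FDR 0.137 by the authors' deposited table). Summed over the 3 islands, the depth-scaled read ratio of mutant to WT was 0.987, with an interval of 0.892 to 1.09 that included 1. DiffBind also listed 1 H3K36me2 window in the gene, from 80701756 to 80702156, with means of 11.0 in WT and 4.37 in the mutant and a shrunken log2 fold of -0.0026 (p = 0.0368, FDR 0.9996 by the authors' deposited table).

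Cd34, whose product is the sialomucin used to sort bulge cells in the mouse, had no listed region of either mark in 22.5 kb and its flanks.

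Taking the 9 islands as a group, 5 were higher and 3 lower in the mutant, and 1 was called neither way. Of the 9, 8 overlap the body of the gene, and the lower Tcf7l2 island before the gene does not. Among the 7021 islands that overlap gene bodies, 25.7% were higher and 45.0% lower. By gene, 3 of the 10 had a higher island and 2 a lower one, against 7.13% and 12.2% of all genes. The median fold of the 9 was 1.22, against 0.814 over all islands and 0.919 over those in gene bodies. All 3 genes with islands are longer than 100 kb, as are Lgr5 and Tcf7l1. Of all 2429 genes of at least 100 kb, 43.8% had an island. Islands of 1 gene are not replicates, since 5 of the 9 lie in Tcf7l2. An exact binomial test of the pooled reads kept 4 of the 8 calls (adjusted p 5.24e-04 to 0.0440): Lgr6 and, in Tcf7l2, the islands at 47.2 and 85.4 kb and the one before the gene. Relative to the median ratio of all islands, 0.815, no island at the genes was called lower and 6 were called higher.

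**Figure D4:**
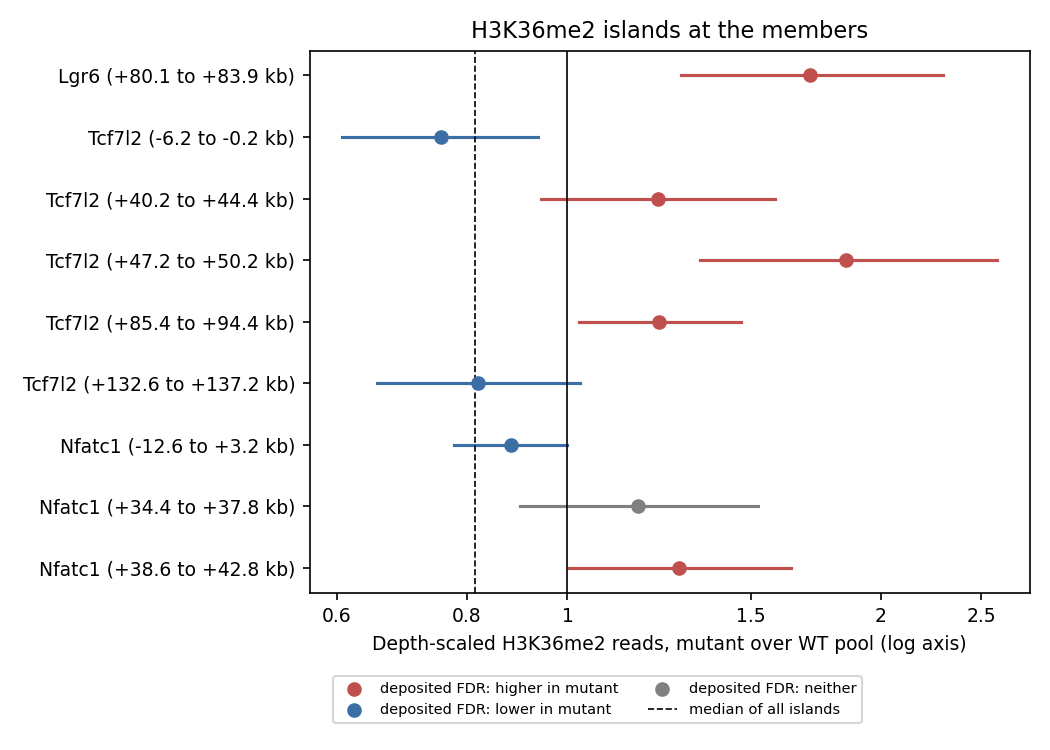
Depth-scaled ratio of mutant to WT reads (log axis) for the 9 islands, with exact 95% intervals that cover counting error only. The solid line marks 1 and the dashed line the median of all islands, 0.815. The Lgr6 island and the Tcf7l2 island at 47.2 kb lie farthest to the right.

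DiffBind called 0 H3K36me2 windows at FDR 0.05 across the genome and listed 4.04% of those tested at a nominal p under 0.05. The 2 windows at Foxc1 and Nfatc1 are among these, and neither was called.

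The genes that work with these 10 were counted in the same way, in lists also chosen with earlier results of these data known. Over all protein-coding genes, 7.13% had a higher island, 12.2% a lower one, 7.43% a falling H3K27me3 window and 2.64% a rising one. The lists were not matched for gene length, and 43.8% of all genes of at least 100 kb had an island. In the LGR and R-spondin axis (7 genes), H3K27me3 fell at Rspo1 and Rspo4, which encode R-spondin ligands, with log2 folds of -0.95 and -1.14 by the authors' deposited table. H3K36me2 islands were lower at Znrf3, the ubiquitin ligase that removes WNT receptors (fold 0.711 by the authors' deposited table), and at Lgr4 (fold 0.791 by the authors' deposited table). Lgr4 also had a higher island. No gene of this axis had a rising H3K27me3 window in DiffBind's comparison.

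Among 8 TCF/LEF partners, H3K27me3 fell at Lef1, the WNT effector of hair shaft precursors, and at Tle1, a Groucho co-repressor gene. By the authors' deposited table, Lef1 had a log2 fold of -1.11 and Tle1 one of -1.12. Tle4, another Groucho gene, had a higher island with a fold of 1.44 by the authors' deposited table. None of the 8 had a lower island or a rising H3K27me3 window.

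Of 9 paralogues of the genes, H3K27me3 fell at 5: Sox8, Sox10, Lhx9, Nfatc2 and Tbx2. A falling window was present at 7.43% of all genes. The log2 folds were -0.96 at Sox8, -0.78 at Sox10, -0.88 at Lhx9 and -0.77 at Tbx2 by the authors' deposited table. Nfatc2 also had a rising window and a higher island (fold 1.24 by the authors' deposited table), and no other paralogue had either.

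Of 20 other follicle stem cell and progenitor genes, 8 had a higher island and 8 a lower one, with 5 counted in both (Lrig1, Nfib, Dkk3, Vdr and Foxp1). The shares over all genes were 7.13% and 12.2%. Nfib and Nfix, nuclear factor I genes of the follicle, had islands with folds of 1.71 and 1.72 by the authors' deposited table, and the Nfix island lay outside the gene near Lyl1 and Trmt1. Sfrp1, a WNT antagonist gene, had an island with a fold of 0.604 and Vdr, the vitamin D receptor gene, one with 1.31 by the authors' deposited table. H3K27me3 fell at 6 of the 20 and rose at 4 (Bmpr1a, Sfrp1, Itga6 and Foxp1), against 7.43% and 2.64% of all genes. The falling ones included Foxi3 (log2 fold -1.16), Wif1 (-1.09), Fgf18 (-1.21) and Shh (-0.79) by the authors' deposited table.

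**Figure D5:**
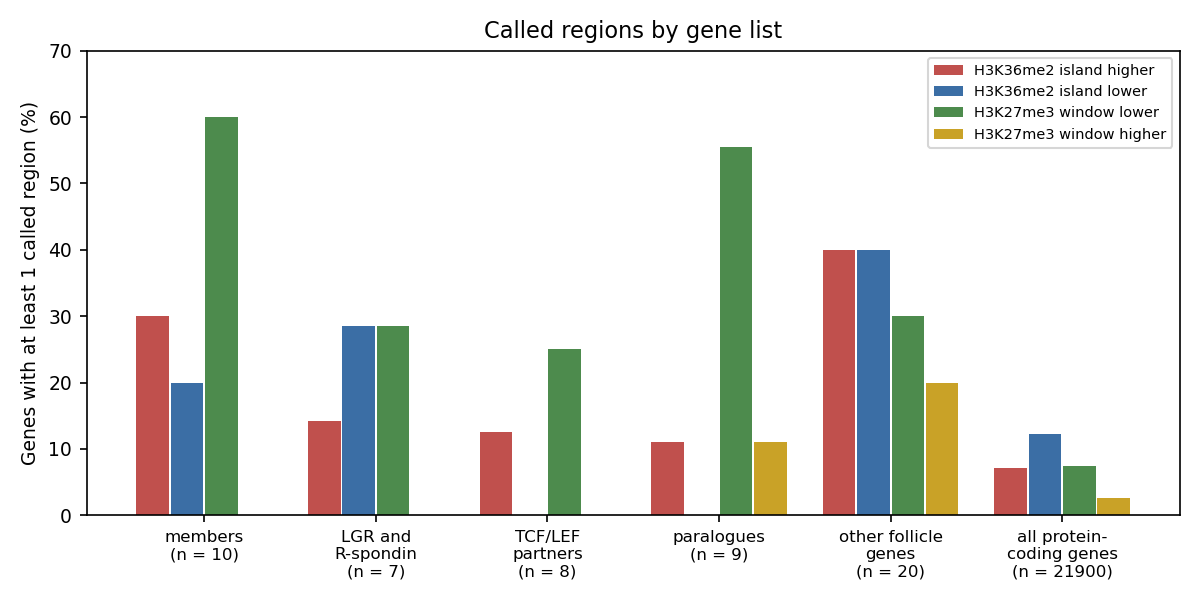
Share of genes (%) with at least 1 called region of each kind within 5 kb, for the 10 genes, the related lists and all 21900 protein-coding genes. The green bar, falling H3K27me3, stands at 6 of 10 genes and at 5 of 9 paralogues, and the yellow bar, rising H3K27me3, is absent for the 10 genes.

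The H3K36me2 pools behind the islands held 59539924 reads from mutant and 47361190 from WT epidermis. Histone marks do not measure expression, so the epidermal label could be set only against marks at marker genes. Keratinocyte genes (Krt5, Krt14, Krt1, Krt10 and Trp63) had higher islands at 3 of 5, including Krt14 with 57 mutant and 16 WT reads. The mutant alone carries the Krt14-Cre transgene, and its part in the reads at Krt14 was not tested. Trp63 also had a lower island and a rising H3K27me3 window. Markers of other cell types had 0 higher islands, and lower islands at 2 of 5 melanocyte, 1 of 4 immune, 0 of 4 fibroblast and 3 of 4 endothelial genes. Among all protein-coding genes, 7.13% had a higher island and 12.2% a lower one. The lists are short, and a contrast of cell types was not tested. H3K27me3 rose at 2 of the endothelial genes, Pecam1 and Vwf, and fell at 1 fibroblast gene, Pdgfra. Of all genes, 2.64% had a rising window and 7.43% a falling one. The part of other cell types in the values above was not tested.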

How the data were processed

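CUT&RUN libraries of IgG, H3K36me2 and H3K27me3 (3 per genotype) were made. The submitters' processing notes name Bowtie2, the GRCm38 (mm10) build, SICER, DiffBind and DESeq2, without versions. Not given in the sources used here: duplicate handling, spike-in, blacklist and the merging of libraries. The authors deposited log2 mean normalised reads per genotype, a log2 fold (mutant over WT), p-values and FDR for 401 bp windows, per the file headers. The fold is called shrunken here because, at the listed windows of the genes, it is smaller in size than the difference of the log2 means. For islands they deposited read counts and RPM per genotype pool, a fold, p-values and FDR, per the file headers. That this fold has 1 read added was inferred from the counts. IgG libraries were not analysed here.

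Regions overlapping a RefSeq (GRCm38.p6) body with 5 kb flanks by 1 bp were assigned to the gene. SICER coordinates were made 1-based. Means were converted from log2, pool sizes computed as count over RPM, and intervals taken from Clopper-Pearson limits. They cover counting error only. An exact 2-sided binomial test (Benjamini-Hochberg over all islands), checked on simulated data, was an alternative, as were other flanks, thresholds and scaling (Python 3.11.15, scipy 1.17.1). Named genes were all 10 members and, of each related list, up to 4 with a called region by FDR, beside genes named in counts. Members and lists were chosen with earlier results of these data known.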

Additional observations from a re-analysis of the deposited data

How the results depend on the processing

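Relative to the median of all islands, the genes with a lower island went from 2 to 0 and the lower islands from 3 to 0. The log2 ratio of the Tcf7l2 island from 55874401 then became 0.011 and that of the Nfatc1 island from 80593601 became 0.11, so both changed sign. A general loss of H3K36me2 and a scaling difference cannot be told apart here. With the exact binomial test, 1 gene had a lower island, 1 island was lower and 3 were higher in place of 5. With gene bodies only, or with a nominal p under 0.01, 1 gene in place of 2 had an H3K36me2 DiffBind window. The other 28 of 35 recomputed counts stayed within 1.5 times, among them 4 to 6 genes with a falling H3K27me3 window and 0 with a rising one under every flank, FDR and size tried. No paired analysis was possible because the tables used hold genotype means and pooled counts, and no replicate could be left out for the same reason. Reads of 183 to 1010 per island (both pools) limit the island ratios, and the depth of single libraries is unknown.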

Other observations

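Between 5 and 20 kb from the genes lay 2 further regions. An H3K36me2 island on chromosome 18 from 80578801 to 80587600, 18605 bp before the low-coordinate end of Nfatc1, held 260 mutant and 293 WT reads, with a fold of 0.706 by the authors' deposited table. Beyond the start of Lgr6, an H3K27me3 window on chromosome 1 from 135125346 to 135125746, 19972 bp outside the gene, went from 24.5 to 9.29 normalised reads, with a log2 fold of -1.14 (FDR 0.00499) by the authors' deposited table. Both regions were lower in the mutant, as were the regions of the same mark at the nearest end of each gene.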
